A study of Homo sapiens with 8 samples.

Results

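The transcript response to epidermal growth factor (EGF) was compared between OVISE cells that have the tyrosine kinase SYK and OVISE cells that lack it. OVISE is an ovarian clear cell carcinoma line of human origin. For each gene, the change with EGF in SYK knockout cells (SYK-KO) was set against the change with EGF in wild-type cells (SYK-WT), and the difference between the 2 changes is the quantity described. A negative difference means that the level moved less upwards, or more downwards, with EGF in SYK-KO cells. The loci described are the 12112 of 27757 in the deposited table that reached 1 FPKM (the fragments of a locus scaled by transcript length and library depth) in at least 2 of the 8 libraries. At that limit, 237 loci reached 1 FPKM in exactly 2 libraries and entered, and 288 reached it in exactly 1 library and did not. From these loci 79 genes were named by rule.

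RNA was sequenced from 4 groups with 2 libraries each: untreated SYK-WT cells, untreated SYK-KO cells, and both genotypes after EGF at 50 ng/ml for 24 h. Knockout was made with a Cas9 nickase, which cuts a single strand, and a pair of guides, followed by puromycin selection and picking of single-cell clones, and loss of the protein was checked by immunoblot, per the labels' protocols. The number of clones behind the SYK-KO libraries is not given in the sources used here, and neither is whether separate cultures were used for the libraries of a group. P-values therefore cover only how far these libraries spread, which can be technical, and a clone's own traits and the loss of SYK cannot be told apart.

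SYK is a cytoplasmic tyrosine kinase best known from immune receptors, where it binds phosphorylated receptor tails and passes the signal to adaptors and phospholipases. EGF binds the receptor EGFR, which signals through the RAS-ERK cascade, PI3 kinase and STAT factors. In epithelial and carcinoma cells these routes are known to induce secreted proteases and their inhibitors, chemokines, integrins and a set of ERK-dependent feedback inhibitors.

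The guides lie in exon 2 of SYK, on chromosome 9 of GRCh38. Guide 1 matches 90844042 to 90844061 on the strand opposite to SYK, and guide 2 matches 90844080 to 90844099 on the strand of SYK. They are shown because they define the knockout, each followed in capitals by the bases of the protospacer-adjacent motif that the reference holds there.
guide 1: cggacagggcgaagccacccAGG
guide 2: cacaccactacaccatcgagCGG

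SYK transcript was present in every library. Its level was 4.91 and 5.30 FPKM in untreated SYK-WT cells and 3.88 and 3.62 FPKM with EGF, against 3.11 and 3.43 FPKM in untreated SYK-KO cells and 2.80 and 3.16 FPKM with EGF. Untreated SYK-KO libraries lay below both untreated SYK-WT libraries (log2 difference -0.52, limma adjusted p = 0.00289). A level over the whole transcript does not show the edit. SYK fell with EGF in SYK-WT cells by 0.36 on the log2 scale (limma adjusted p = 0.0191), its change in SYK-KO cells was -0.10 (adjusted p = 0.495), and the difference of 0.26 ± 0.12 (SE) did not pass (adjusted p = 0.593).

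Depth was alike across the groups, at an estimated 23000000 to 27200000 fragments per library. The untreated SYK-WT pair was the least alike: its median absolute difference over the loci tested was 0.150 in log2 units. In the other pairs it was 0.0669 (SYK-KO), 0.0709 (SYK-WT EGF) and 0.0828 (SYK-KO EGF). Every difference of the EGF changes rests on that pair, and all genes share it. Markers of epithelial cells (11 of 11) and of clear cell carcinoma (9 of 9) reached 1 FPKM in at least 1 library. Of the fibroblast markers 0 of 9 did, with COL3A1, DCN, LUM and THY1 at 0 in every library and a summed level of 0.117 to 0.402 FPKM. Endothelial markers also gave 0 of 6, summed to 0.114 to 0.285 FPKM, and 2 of 8 haematopoietic markers reached the limit, the lysosomal genes CD68 and LAPTM5. Mesothelial markers reached it in 4 of 6 cases, with PDPN at 0.

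Across all loci the responses of the genotypes were close. The difference was -0.0095 at the median, lay between -0.12 and 0.11 for the middle 50% of loci, and between -0.31 and 0.32 for the middle 90%. Its median standard error was 0.128. The change with EGF passed the test (limma, Benjamini-Hochberg adjusted p under 0.05) at 3238 loci in SYK-WT cells (26.7%; 14.7% up and 12.1% down) and at 1429 in SYK-KO cells (11.8%; 6.67% up and 5.13% down), but these counts do not show how many responses differ. With library weights, lowest for the untreated SYK-WT pair (0.331), the order was reversed, at 1877 loci in SYK-WT and 3024 in SYK-KO cells. Counts of rises and falls in the lists and classes below use the unweighted fit. Tested directly, the difference passed at 1 locus, PLAT, with a smaller rise in SYK-KO cells (0.00826% of 12112), and at 0 loci in the other direction (0.0%). At an unadjusted p under 0.05 stood 1070 loci (8.83%), of which 592 were lower in SYK-KO cells (4.89% of all) and 478 higher (3.95%). As a description without a test, the 4 changes of a genotype (each treated library against each untreated one) were set side by side, and the ranges of the genotypes did not overlap at 1561 loci lower (12.9%) and 1324 higher (10.9%) in SYK-KO cells.

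**Figure D1:**
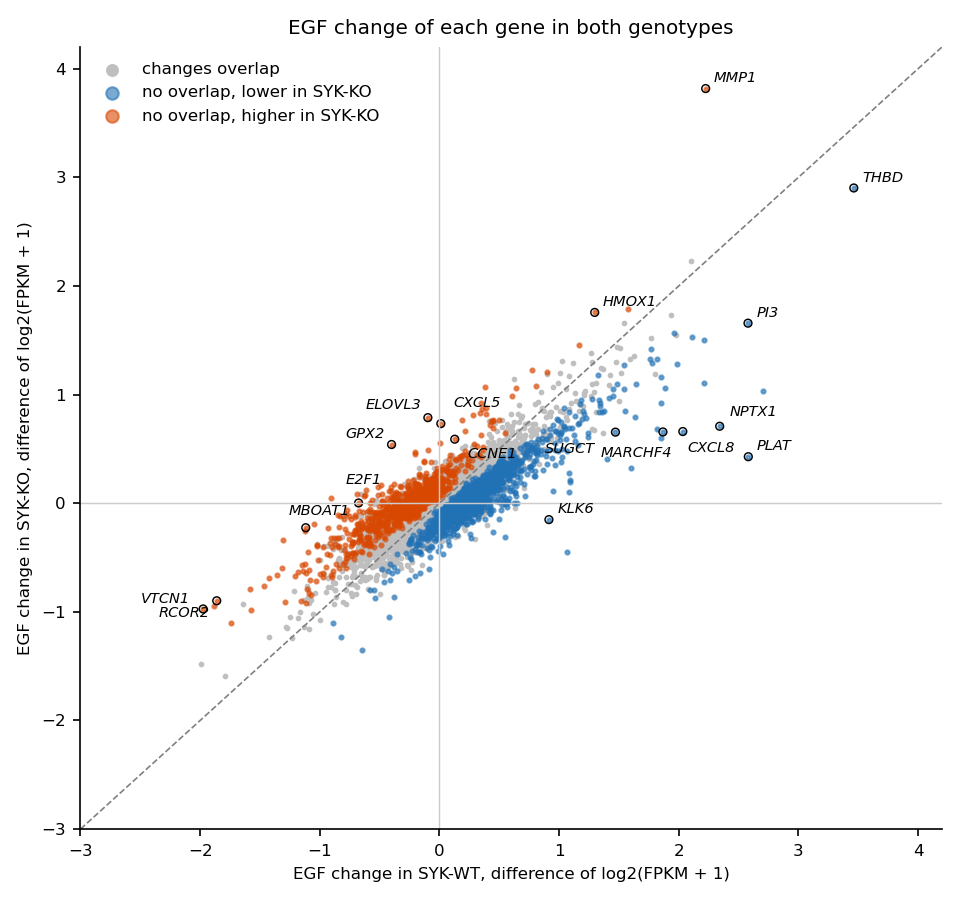
Change with EGF in SYK-WT cells (x axis) against SYK-KO cells (y axis), as differences of log2(FPKM + 1) between group means, for the loci that could be named; the dashed line marks equal changes. Most loci lie along the line, PLAT (2.58 against 0.43) and KLK6 (0.91 against -0.15) lie below it, and MMP1 (2.23 against 3.82) lies above it.

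Among the 142 genes that rose by at least 1 on the log2 scale in SYK-WT cells, the median rise was 1.27 there and 0.92 in SYK-KO cells, and all 142 had a change above 0 in SYK-KO cells. The change in SYK-KO cells was under 0.5 of that in SYK-WT cells for 30 of the 142 and larger for 15. Of 67 genes that fell by at least 1 in SYK-WT cells, the medians were -1.14 and -0.79, 66 had a change below 0 in SYK-KO cells, and 18 had a change in SYK-KO cells of under 0.5 of that size. Picking genes by their size in a genotype favours that genotype, so the choice was also made in SYK-KO cells: its 71 genes that rose by at least 1 had a median rise of 1.23 there and 1.37 in SYK-WT cells, and 43 of them had the larger change in SYK-WT cells. The 22 genes that fell by at least 1 in SYK-KO cells had medians of -1.15 there and -1.15 in SYK-WT cells, and 10 of them had the larger change in SYK-WT cells.

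PLAT encodes tissue plasminogen activator, a secreted serine protease that turns plasminogen into plasmin. It stood at 2.16 and 1.99 FPKM in untreated SYK-WT cells and at 17.6 and 17.2 FPKM with EGF, and at 3.88 and 3.42 FPKM in untreated SYK-KO cells and 5.69 and 4.84 FPKM with EGF. All 4 treated libraries were above the untreated ones of their genotype, and SYK-KO libraries were the higher ones before EGF and the lower ones after it. The rise was 2.58 on the log2(FPKM + 1) scale with SYK and 0.43 without it, a difference of -2.15 ± 0.13 (SE; 95% interval -2.45 to -1.85; limma adjusted p = 0.00259). In linear terms the mean rose 8.38-fold, by 15.3 FPKM, with SYK and 1.44-fold, by 1.61 FPKM, without it. Without SYK-WT EGF replicate 1 the difference was -2.14, with an adjusted p of 0.0525. In bulk RNA, fewer cells that express a gene and less RNA per cell cannot be told apart.

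Plasminogen activation and coagulation genes, the list to which PLAT belongs, had 14 members tested. With EGF 11 rose and 0 fell in SYK-WT cells (14.7% and 12.1% of all loci), and 9 rose and 0 fell in SYK-KO cells (6.67% and 5.13%). The difference was negative for 10 of 14, with a median of -0.31 beside -0.0095 over all loci, and 7 of 14 had an unadjusted p under 0.05 with a smaller change in SYK-KO cells (4.89% of all loci). PLAT is the 1 of them that passed after adjustment.

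SERPINE2, protease nexin-1, which inhibits plasminogen activators and thrombin, rose from 15.7 and 13.3 to 54.4 and 57.7 FPKM in SYK-WT cells and from 41.1 and 39.8 to 89.5 and 81.3 FPKM in SYK-KO cells (difference -0.83 ± 0.13, adjusted p = 0.138). SYK-KO libraries were above the matching SYK-WT libraries in both conditions. THBD, thrombomodulin, the cell-surface cofactor that turns thrombin towards protein C, had the largest rise of the list in SYK-WT cells, from 6.32 and 5.30 to 73.5 and 74.3 FPKM, against 6.15 and 5.39 to 51.2 and 47.9 FPKM in SYK-KO cells (difference -0.56, adjusted p = 0.31). The untreated libraries of both genotypes overlapped, and the treated ones did not.

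PLAU, urokinase, the other plasminogen activator, rose by 1.82 with SYK and 1.33 without it, and PLAUR, its cell-surface receptor, by 1.76 and 1.42. PLAUR went from 20.1 and 20.3 to 72.0 and 69.9 FPKM with SYK and from 20.3 and 17.9 to 53.3 and 52.2 FPKM without it. ANXA2 and S100A10, which form a surface complex that binds plasminogen, rose by 0.92 and 0.56 with SYK and by 0.49 and 0.29 without it. Among these 4 genes the adjusted p of the difference ran from 0.34 for ANXA2 to 0.51 for PLAU, so none passed. Genes of the extrinsic clotting pathway in the list had differences near 0, with F3 (tissue factor) at -0.10 and TFPI, its inhibitor, at 0.05.

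Antiproteases and matrix enzymes held further rises that were smaller in SYK-KO cells, none of which passed the test of the difference. Of 11 antiproteases tested, 7 rose with SYK (14.7% of all loci) and 5 without it (6.67%). The median difference was -0.26, and 5 had an unadjusted p under 0.05, all with a lower change in SYK-KO cells (4.89% of all loci). SERPINB1, an inhibitor of neutrophil elastase, rose from 21.4 and 20.6 to 95.9 and 92.5 FPKM in SYK-WT cells and from 17.8 and 17.4 to 54.8 and 50.8 FPKM in SYK-KO cells (difference -0.58 ± 0.09, adjusted p = 0.143). PI3, elafin, another elastase inhibitor, rose from 3.07 and 2.04 to 17.9 and 22.3 FPKM with SYK, and from 19.6 and 23.2 to 64.8 and 74.5 FPKM without it. For PI3 the log2 difference was -0.92 (adjusted p = 0.344), with a pseudocount of 5 it was -0.23 (adjusted p = 0.708) and with 0.01 -1.29 (adjusted p = 0.338), while the gain in FPKM was larger in SYK-KO cells, which started from a higher level. The cystatins CST3 and CST6 and the elastase inhibitor SERPINA1 had differences of -0.28, -0.35 and -0.36.

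TIMP3, a matrix-bound inhibitor of metalloproteinases, rose from 16.6 and 23.6 to 52.9 and 55.0 FPKM in SYK-WT cells and stood at 10.9 and 12.05 and then 15.2 and 16.0 FPKM in SYK-KO cells. Every SYK-KO library was below every SYK-WT library. The difference was -0.99 ± 0.20 (adjusted p = 0.288), and TIMP3 shares its locus with SYN3, which was near 0. TIMP1 was at 82.2 and 82.7 and then 112 and 116 FPKM in SYK-WT cells and at 142 and 134 and then 150 and 156 FPKM in SYK-KO cells (difference -0.31). Over the 11 matrix proteases and inhibitors tested, 8 differences were negative and 3 positive, with a median of -0.17 and MMP1 as the far positive member described below. Without SYK-KO replicate 2, 5 were negative and 6 positive (median 0.02), and without SYK-WT replicate 2, 6 and 5 (median -0.03).

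KLK6, a secreted trypsin-like kallikrein, was the most abundant of the named genes that rose with SYK and had under 0.25 of that change without it. Its levels were 319 and 260 FPKM in untreated SYK-WT cells and 556 and 533 FPKM with EGF, and 49.2 and 57.6 and then 44.6 and 51.4 FPKM in SYK-KO cells. It rose by 0.91 on the log2 scale with SYK, and the change without SYK was -0.15 (adjusted p = 0.468). The difference was -1.07 ± 0.17 (adjusted p = 0.147). S100A14, a calcium-binding protein of epithelia, rose from 3.95 and 4.05 to 10.5 and 8.71 FPKM with SYK and lay between 0.463 and 0.715 FPKM in all SYK-KO libraries (difference -0.98, adjusted p = 0.138). At that level a fold change in SYK-KO cells is poorly seen on the log2(FPKM + 1) scale.

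CXCL8, interleukin-8, a chemokine that attracts neutrophils, was at 8.20 and 4.87 FPKM in untreated SYK-WT cells and 31.9 and 26.5 FPKM with EGF, and at 5.09 and 5.99 and then 8.41 and 10.3 FPKM in SYK-KO cells. Untreated libraries of the genotypes overlapped, and each treated SYK-WT library lay above every SYK-KO library. The rise was 2.03 with SYK, and the change without SYK was 0.66 (adjusted p = 0.0779), with a difference of -1.37 ± 0.29 (95% interval -2.04 to -0.71; adjusted p = 0.288). The difference was -1.70 (adjusted p = 0.00711) when SYK-WT replicate 1 was left out and -1.05 (adjusted p = 0.0734) when replicate 2 was.

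The 250 bases upstream of CXCL8 (GRCh38.p14, chr4:73740319-73740568, plus strand, RefSeq) are shown because they hold both an AP-1 match (TGANTCA) and an NF-kappaB match (GGNNNTTCC), in capitals, starting 137 and 91 bases before the start site. PLAUR (chr19:43670170-43670419, minus strand) is set beside it with an AP-1 match at 186 bases before the start. Both strands were searched. Matches to these letters occurred in 6.60% (AP-1) and 17.1% (NF-kappaB) of 27305 promoters of that length. AP-1 matches occurred in 4 of 10 promoters found for the plasminogen list. They occurred in 0 of 10 and 0 of 8 found for genes named by smallest p, lower and higher in SYK-KO cells. NF-kappaB matches occurred in 3 of 10, 4 of 10 and 4 of 8 of these promoters. A tie between matches and responses was not tested.
CXCL8: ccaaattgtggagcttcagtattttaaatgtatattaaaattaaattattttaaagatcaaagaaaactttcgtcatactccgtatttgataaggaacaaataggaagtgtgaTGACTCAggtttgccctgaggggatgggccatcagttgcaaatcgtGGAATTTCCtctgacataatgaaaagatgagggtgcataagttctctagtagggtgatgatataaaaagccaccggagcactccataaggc
PLAUR: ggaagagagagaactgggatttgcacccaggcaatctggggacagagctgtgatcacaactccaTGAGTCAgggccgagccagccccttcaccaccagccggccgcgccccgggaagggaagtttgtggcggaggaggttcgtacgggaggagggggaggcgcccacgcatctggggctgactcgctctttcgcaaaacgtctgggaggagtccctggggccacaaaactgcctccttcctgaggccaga

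CXCL1, CXCL2 and CXCL3, which share receptors with CXCL8, had differences nearer to 0. CXCL2 changed by 1.09 with SYK and 1.17 without it, CXCL3 by 1.04 and 0.84, and CXCL1 by 0.67 and 0.90, each passing in both genotypes and with an adjusted p of the difference of 0.76 or more. CXCL1 started lower in SYK-KO libraries (23.1 and 23.9 FPKM) than in SYK-WT libraries (71.4 and 51.5 FPKM). IL6 was at 73.6 and 61.1 and then 81.3 and 78.0 FPKM with SYK and at 161 and 147 and then 180 and 182 FPKM without it, with a difference of -0.01 ± 0.13. CXCL5, a chemokine of the same receptor family as CXCL8, was listed at 0 in 3 of 4 SYK-WT libraries and at 0.0161 FPKM in the other, and rose from 20.3 and 19.97 to 34.0 and 34.2 FPKM in SYK-KO cells (difference 0.72, adjusted p = 0.106). A change of CXCL5 with SYK can hardly be seen from that level. With a pseudocount of 0.01 its changes were 0.69 with SYK and 0.76 without it (difference 0.07, limma adjusted p = 0.984). Over the 12 chemokines and cytokines tested, 8 differences were negative and 4 positive, with a median of -0.12. Without SYK-WT replicate 2, 4 were negative and 8 positive, and the median was 0.10.

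**Figure D2:**
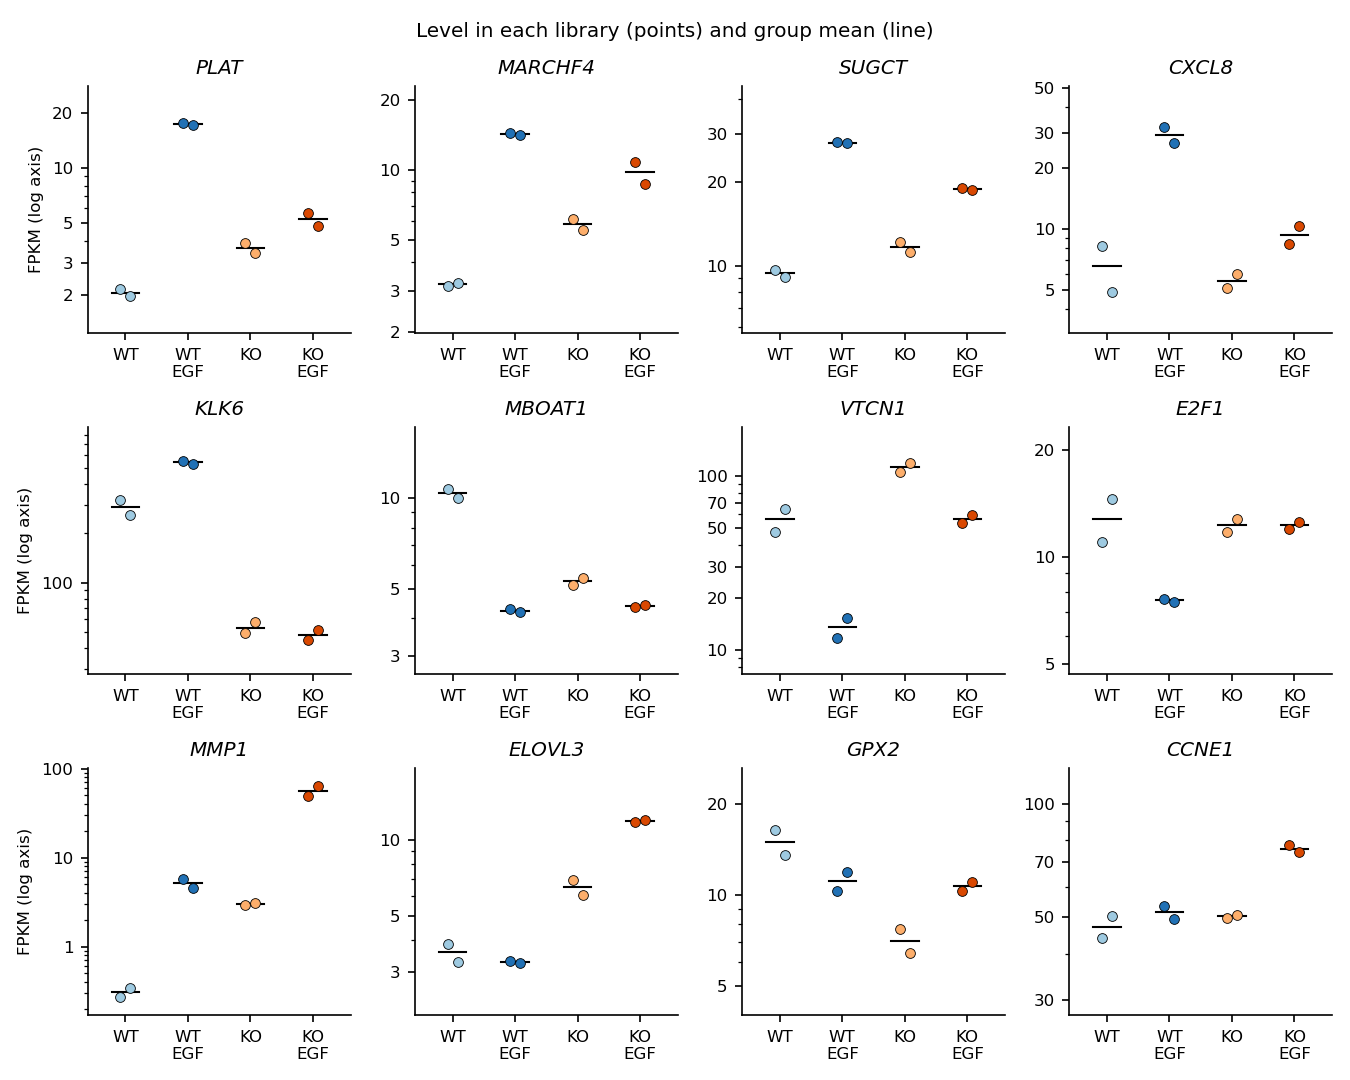
FPKM (log axis) in each library for 12 genes, with points for the 2 libraries of a group and a line for their mean; WT and KO stand for SYK-WT and SYK-KO. PLAT, MARCHF4, SUGCT and CXCL8 climb further with EGF in SYK-WT cells, and ELOVL3 and CCNE1 climb in SYK-KO cells. MBOAT1 drops further in SYK-WT cells than in SYK-KO cells, and E2F1 drops in SYK-WT cells and stays nearly level in SYK-KO cells.

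Among negative differences, SUGCT and MARCHF4 had the smallest p after PLAT. SUGCT, a mitochondrial CoA-transferase of glutarate metabolism (chromosome 7, 40174575 to 40900366, hg19), rose from 9.66 and 9.13 to 27.9 and 27.7 FPKM with SYK and from 12.2 and 11.2 to 19.1 and 18.7 FPKM without it. MARCHF4, a membrane-bound ubiquitin ligase (chromosome 2, 217122585 to 217236750, hg19), rose from 3.15 and 3.24 to 14.4 and 14.2 FPKM with SYK and from 6.15 and 5.51 to 10.9 and 8.72 FPKM without it. In both genes the SYK-KO libraries were higher before EGF and lower after it. The differences were -0.82 ± 0.10 and -1.21 ± 0.15, each with a limma adjusted p of 0.0694.

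Further rises that passed in both genotypes and were smaller without SYK came from genes of varied roles. FOXD1, a forkhead transcription factor, rose from 14.7 and 13.2 to 53.6 and 52.2 FPKM with SYK and from 25.3 and 24.3 to 51.7 and 44.2 FPKM without it, so that the treated levels nearly met (difference -0.93, adjusted p = 0.106). SEMA7A, a membrane-anchored semaphorin, rose from 16.8 and 15.4 to 63.4 and 70.2 FPKM with SYK and from 17.4 and 17.7 to 45.3 and 43.3 FPKM without it (difference -0.70, adjusted p = 0.138). SNCG, gamma-synuclein, had a difference of -0.84 and ATOX1, a copper chaperone, of -0.62 (adjusted p 0.135 and 0.138). HIPK2, a nuclear kinase, was an exception and passed in SYK-WT cells only. Its change was 0.95 with SYK and 0.11 without it (limma adjusted p = 0.471), and its 4 SYK-KO libraries lay between 6.37 and 7.50 FPKM.

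Integrins and adhesion genes held both directions. Of 17 tested, 10 rose with SYK (14.7% of all loci) and 9 without it (6.67%). The difference was negative for 12 and positive for 5, and 3 in each direction had an unadjusted p under 0.05 (4.89% and 3.95%). ITGA2, the alpha subunit of a collagen receptor, rose from 12.3 and 8.36 to 38.1 and 40.5 FPKM with SYK and from 33.4 and 36.2 to 49.6 and 57.4 FPKM without it. The untreated SYK-KO level was close to the treated SYK-WT level, and the difference of the changes was -1.25 ± 0.22 (adjusted p = 0.186). CD44, the hyaluronan receptor, rose by 1.17 with SYK and by 0.74 without it. ITGB6, which pairs with the alpha-v subunit, went the other way, from 25.5 and 25.1 to 38.1 and 40.2 FPKM with SYK and from 15.0 and 16.1 to 31.0 and 32.4 FPKM without it (difference 0.38, adjusted p = 0.344).

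Several genes named by rank with a positive difference fell with EGF in SYK-WT cells and fell less in SYK-KO cells. Of the 12 genes with the smallest p among those with a positive difference, 10 had a negative change in SYK-WT cells, which picking by a positive difference favours. Among these 10, ELOVL3, GPX2, ID2 and CCN3 had positive changes without SYK (0.79, 0.54, 0.15 and 0.07), and ELOVL3 changed by only -0.10 with SYK. MBOAT1, a lysophospholipid acyltransferase (chromosome 6, 20099916 to 20212695, hg19), fell from 10.8 and 10.0 to 4.31 and 4.18 FPKM with SYK and stood at 5.16 and 5.45 and then 4.37 and 4.42 FPKM without it. SYK-KO cells were thus low before EGF, and the treated libraries of both genotypes lay within 4.18 to 4.42 FPKM. The change was -1.12 with SYK and -0.23 without it (adjusted p = 0.0847), and the difference 0.89 ± 0.10 (adjusted p = 0.0694).

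NAA40, which acetylates the amino terminus of histones, showed the same layout, with 22.5 and 21.2 and then 11.1 and 11.2 FPKM in SYK-WT cells and 12.9 and 13.6 and then 10.2 and 10.7 FPKM in SYK-KO cells (difference 0.59, adjusted p = 0.152). RCOR2, a corepressor subunit, fell from 7.004 and 8.40 to 1.23 and 1.55 FPKM with SYK and from 3.05 and 3.07 to 0.944 and 1.44 FPKM without it (difference 0.96, adjusted p = 0.288). For both genes the untreated levels were apart and the treated ones close or overlapping. OSBPL11, a lipid-transfer protein, CCN3, a matricellular protein, and SCGB1D2, a secretoglobin, had differences of 0.53, 0.70 and 0.97.

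VTCN1 and NTN4 differed in this layout. VTCN1, the immune checkpoint ligand B7-H4, fell from 47.8 and 64.6 to 11.6 and 15.4 FPKM with SYK and from 105 and 119 to 53.4 and 59.7 FPKM without it. Treated SYK-KO cells thus held about as much VTCN1 as untreated SYK-WT cells, and the gap between the genotypes was 0.997 on the log2 scale before EGF and 1.998 with it (difference 1.002 ± 0.23, adjusted p = 0.313). NTN4, the secreted guidance protein netrin-4, fell from 20.8 and 22.2 to 10.0 and 10.1 FPKM with SYK, while the SYK-KO libraries went from 22.5 and 26.1 to 17.1 and 19.6 FPKM (difference 0.64, adjusted p = 0.288).

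**Figure D3:**
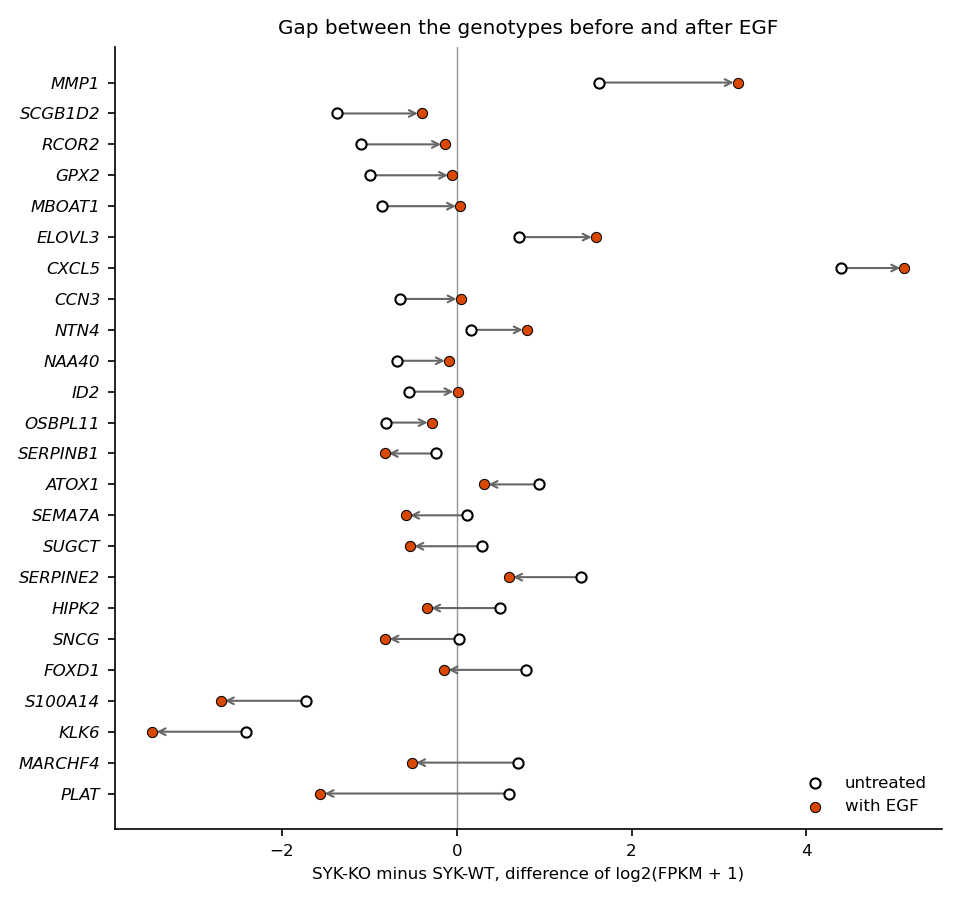
SYK-KO minus SYK-WT as a difference of log2(FPKM + 1), untreated (open circles) and with EGF (filled circles), for the 24 genes named by smallest p, 12 in each direction. Among the 12 with a positive difference the median size of the gap was 0.83 untreated and 0.21 with EGF; among the 12 with a negative difference it was 0.65 and 0.59, and in 7 of them the gap changed sign.

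Cell cycle genes gave small and mostly positive differences. Of 27 DNA replication genes, 16 fell and 1 rose with EGF in SYK-WT cells (12.1% and 14.7% of all loci), against 1 and 1 in SYK-KO cells (5.13% and 6.67%). The difference was positive for 25 of 27, with a median of 0.25, and 7 had an unadjusted p under 0.05 with a positive difference, against 3.95% of all loci. In the 25 mitosis genes, 17 fell with SYK and 1 without it, the difference was positive for 24, with a median of 0.28, and 11 had an unadjusted p under 0.05. Changes did not overlap between the genotypes for 18 of 27 and 19 of 25 (10.9% of all loci in that direction), and 0 genes of either list passed after adjustment.

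The mean log2(FPKM + 1) over the mitosis genes was 4.06 and 4.18 in untreated SYK-WT libraries, 3.80 and 3.66 with EGF, 4.27 and 4.26 in untreated SYK-KO libraries and 4.18 and 4.12 with EGF. Over the DNA replication genes it was 3.602 and 3.80, 3.40 and 3.32, 3.76 and 3.73, and 3.66 and 3.68 in the same order. The treated SYK-WT libraries were the lowest in both lists. The untreated SYK-WT libraries differed by more than any other pair in the DNA replication list, and the median difference was 0.36 when SYK-WT replicate 1 was left out and 0.16 when replicate 2 was; for mitosis it was 0.32 and 0.23. Members of a list share these libraries and are not independent of each other.

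E2F1, a transcription factor that drives S-phase genes, was at 11.0 and 14.6 FPKM in untreated SYK-WT cells and 7.64 and 7.49 FPKM with EGF, while SYK-KO cells held 11.8 and 12.8 and then 12.04 and 12.6 FPKM. It fell by 0.68 with SYK, its change without SYK was 0.00, and the difference was 0.68 ± 0.16 (adjusted p = 0.335). TOP2A, the topoisomerase of dividing cells, fell by 0.53 with SYK and changed by -0.12 without it, and CENPF, a kinetochore protein, by 0.65 and -0.21. RRM2, a subunit of ribonucleotide reductase, went from 68.0 and 62.7 to 41.8 and 35.2 FPKM with SYK and from 70.1 and 65.6 to 52.3 and 54.9 FPKM without it (difference 0.42). CDT1, which licenses replication origins, had changes of -0.52 and -0.08 and was at 9.23 and 13.2 FPKM in the untreated SYK-WT libraries, against 21.2 and 21.1 FPKM in SYK-KO.

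The 250 bases upstream of E2F1 (chr20:33686386-33686635, minus strand) and CDT1 (chr16:88803539-88803788, plus strand; GRCh38.p14, RefSeq) are shown because these list members have a negative change in SYK-WT cells and hold E2F matches (TTTNNCGC on either strand, in capitals); the last pair in E2F1 overlaps. Such matches occurred in 12 of 23 promoters found for the DNA replication list, 0 of 19 for mitosis and 5.93% of 27305 promoters.
E2F1: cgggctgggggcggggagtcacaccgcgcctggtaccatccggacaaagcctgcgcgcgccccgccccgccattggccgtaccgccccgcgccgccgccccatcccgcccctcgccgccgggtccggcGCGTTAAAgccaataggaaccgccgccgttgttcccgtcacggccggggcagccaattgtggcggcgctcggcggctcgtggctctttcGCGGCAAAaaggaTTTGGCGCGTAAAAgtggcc
CDT1: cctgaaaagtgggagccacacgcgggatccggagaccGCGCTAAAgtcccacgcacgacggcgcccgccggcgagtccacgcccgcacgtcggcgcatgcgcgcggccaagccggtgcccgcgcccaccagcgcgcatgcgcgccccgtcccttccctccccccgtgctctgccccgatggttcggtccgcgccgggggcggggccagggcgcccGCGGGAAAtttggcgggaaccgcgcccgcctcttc

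CCNE1, cyclin E1, which activates CDK2 at the entry into S phase, responded in SYK-KO cells. It was at 43.9 and 50.4 and then 53.6 and 49.5 FPKM with SYK, where treated and untreated libraries overlapped, and rose from 49.9 and 50.7 to 78.0 and 74.3 FPKM without it. The change was 0.13 (adjusted p = 0.272) with SYK and 0.59 (adjusted p = 0.00404) without it, and the difference was 0.46 ± 0.11 (95% interval 0.20 to 0.72; adjusted p = 0.344). Of the 20 G1/S cyclins, CDKs and E2F genes tested, 13 differences were positive and 7 negative, with a median of 0.13. CDK2, CCNE2 and E2F7 had differences of 0.32, 0.33 and 0.36, and the cyclin D genes CCND1, CCND2 and CCND3 of 0.11, -0.32 and 0.12.

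**Figure D4:**
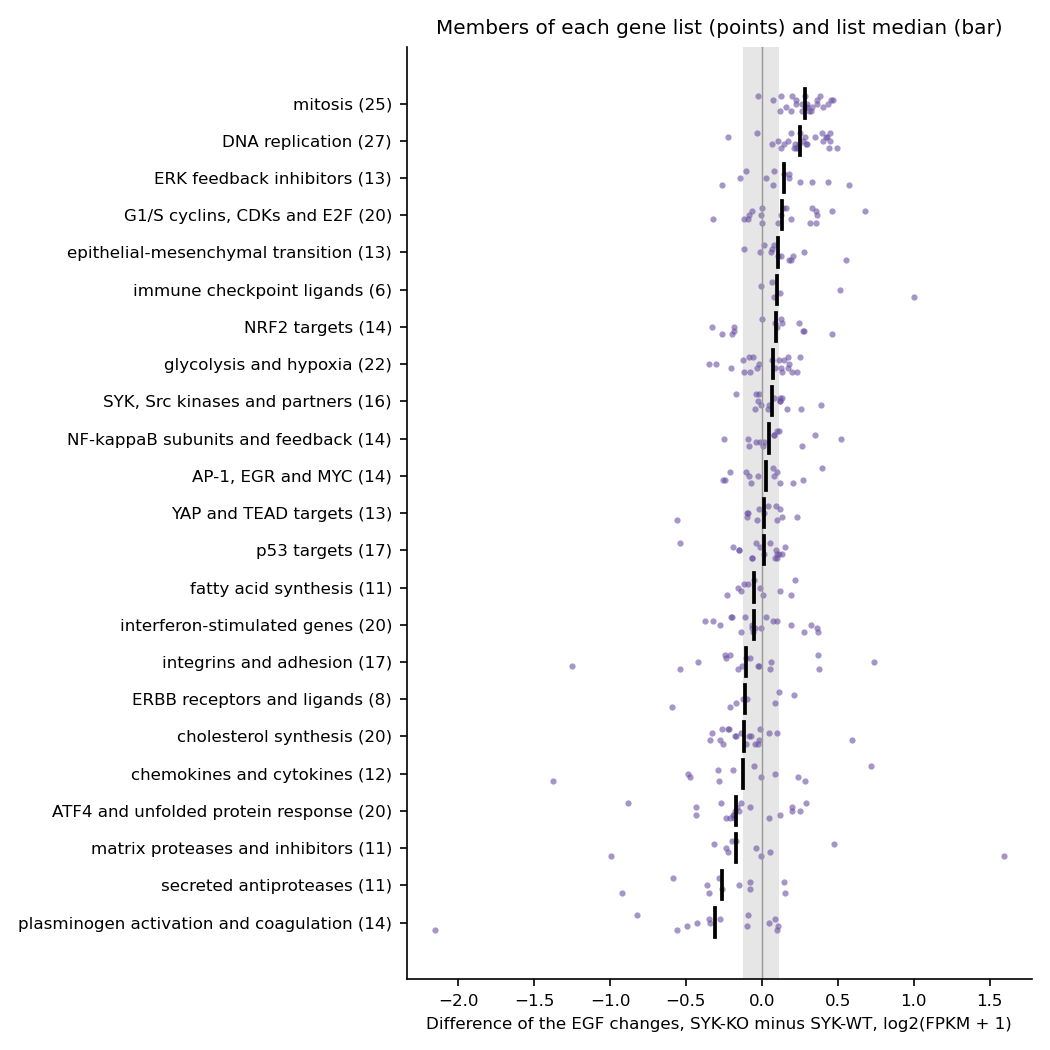
Difference of the EGF changes (SYK-KO minus SYK-WT, log2 scale) for each tested member (points) of 23 gene lists, with the list median (bar); the grey band spans the middle 50% of all loci, -0.12 to 0.11. Medians run from -0.31 for plasminogen activation and coagulation to 0.28 for mitosis.

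MMP1, the interstitial collagenase (chromosome 11, 102654407 to 102714420, hg19, a span shared with WTAPP1 and MMP3, which were near 0), had the largest positive difference among the named genes, at 1.59 ± 0.19 (95% interval 1.14 to 2.04; adjusted p = 0.0694). It rose from 0.272 and 0.344 to 5.75 and 4.54 FPKM with SYK and from 2.93 and 3.13 to 49.0 and 63.6 FPKM without it. Untreated SYK-KO libraries lay between the untreated and the treated SYK-WT ones. In linear terms the rises were close, 16.7-fold with SYK and 18.6-fold without it, while the gain in FPKM was 4.84 and 53.3. With a pseudocount of 0.1 or 0.01 in place of 1 the difference was 0.48 or 0.18 (adjusted p 0.628 and 0.858), and with 5 it was 1.99 (adjusted p = 0.00777). The direction held at all 4 pseudocounts, and the size followed the pseudocount.

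**Figure D5:**
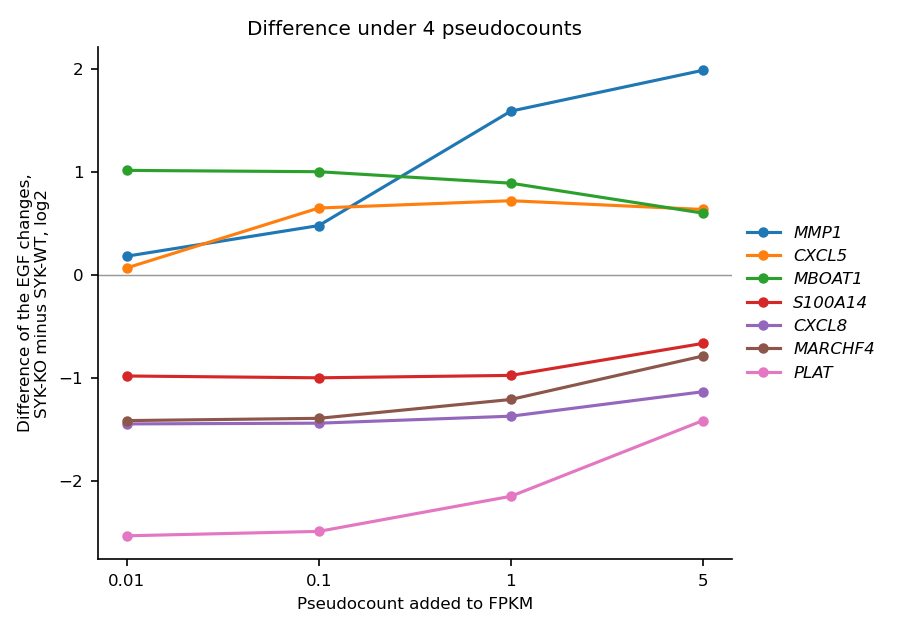
Difference of the EGF changes (SYK-KO minus SYK-WT, log2) for 7 genes with 0.01, 0.1, 1 or 5 added to FPKM before the logarithm. MMP1 runs from 0.18 to 1.99 and CXCL5 from 0.07 to 0.72, while PLAT, MARCHF4, CXCL8 and S100A14 stay below 0 and MBOAT1 above 0 at all 4 values.

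Other genes had larger changes in SYK-KO cells, at differences that did not pass. ELOVL3, a fatty acid elongase, was at 3.87 and 3.30 and then 3.31 and 3.24 FPKM with SYK and rose from 6.92 and 6.03 to 11.8 and 12.01 FPKM without it (difference 0.88 ± 0.13, adjusted p = 0.135). HMOX1, heme oxygenase 1, rose from 14.3 and 16.2 to 38.1 and 39.5 FPKM with SYK and from 44.2 and 41.4 to 136 and 158 FPKM without it (difference 0.46, adjusted p = 0.411). DUSP1, a phosphatase that inactivates MAP kinases, rose from 55.6 and 66.0 to 80.8 and 74.0 FPKM with SYK (limma adjusted p = 0.0424). Without SYK it rose from 33.0 and 34.1 to 59.6 and 69.5 FPKM (difference 0.57, adjusted p = 0.35). For DUSP1 the untreated SYK-KO level was lower and the treated levels were close to each other. LAPTM5, a lysosomal membrane protein, had changes of 0.19 and 0.76.

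GPX2, a glutathione peroxidase of epithelia, was the 1 named gene with a class of opposite changes. Its levels were 16.5 and 13.6 and then 10.3 and 11.9 FPKM with SYK and 7.71 and 6.41 and then 10.3 and 11.1 FPKM without it. The change was -0.40 with SYK and 0.54 without it, and the treated libraries of the genotypes overlapped (difference 0.94 ± 0.17, adjusted p = 0.221). Its span overlaps entries for MAX, RAB15, CHURC1 and FNTB, of which the highest reached 27.4 FPKM, and strand is not given, so its value is uncertain.

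Of 13 ERK feedback inhibitors, which ERK signalling is known to induce, 6 rose and 1 fell in SYK-WT cells (14.7% and 12.1% of all loci), and 8 rose and 1 fell in SYK-KO cells (6.67% and 5.13%). Their differences had a median of 0.14, with 10 positive and 3 negative. An unadjusted p under 0.05 was reached by 3 of 13, all with a positive difference (3.95% of all loci), and the changes of the genotypes did not overlap for 6 of 13 higher (10.9%) and 1 of 13 lower (12.9%) in SYK-KO cells. DUSP1, described above, and the ERK phosphatase DUSP4 were at 0.57 and 0.44. DUSP5, an ERK phosphatase, rose by 1.32 and 1.18, and ERRFI1, an inhibitor of EGFR, by 0.85 and 1.03, with and without SYK. HBEGF, a ligand of EGFR, rose by 1.54 and 1.66, and the AP-1 subunit FOSL1 by 0.67 and 0.75. Standard errors of the differences of these 4 genes were 0.09 to 0.16. None of their differences passed, at adjusted p 0.699 or more.

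NF-kappaB subunits and feedback genes were close as well, with a median difference of 0.04 over 14 members (-0.01 without SYK-WT replicate 1) and 9 rises with SYK and 7 without it (14.7% and 6.67% of all loci). NFKB1 rose by 0.29 and 0.30, and TNFAIP3, a deubiquitinase that limits the pathway, by 0.45 and 0.56. Kinases and adaptors near SYK, 16 members, had differences between -0.17 and 0.39, with SRC at 0.00 and LYN at -0.04. EGFR itself was at 36.4 and 50.7 and then 54.3 and 58.1 FPKM with SYK and at 41.8 and 47.6 and then 45.9 and 55.2 FPKM without it, a difference of -0.21 ± 0.22 (adjusted p = 0.812).

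Metabolic and stress lists showed smaller shifts. The 20 cholesterol synthesis genes had 17 negative differences, with a median of -0.12; without SYK-WT replicate 1, 11 were negative and the median was -0.04. SQLE, squalene epoxidase, had changes of 0.29 and -0.03, and FDPS of 0.34 and 0.00. In the 20 genes of the ATF4 and unfolded protein response, 8 rose with SYK (14.7% of all loci) and 0 without it (6.67%), while 6 fell in each (12.1% and 5.13%), and the median difference was -0.17. CHAC1, an ATF4 target that degrades glutathione, was at 5.92 and 3.31 and then 11.7 and 9.73 FPKM with SYK and at 13.2 and 11.2 and then 15.2 and 13.3 FPKM without it (difference -0.89 ± 0.29, adjusted p = 0.465). Leaving out SYK-WT replicate 1 gave -1.23, and leaving out replicate 2 gave -0.54. Glycolysis and hypoxia genes had 5 rises among 22 in each genotype (14.7% and 6.67% of all loci) and a median difference of 0.07, which turned to -0.15 with SYK-WT replicate 2 left out and to -0.07 with SYK-KO EGF replicate 2 left out. Medians were -0.05 for fatty acid synthesis, 0.02 for YAP and TEAD targets, 0.03 for AP-1, EGR and MYC, 0.09 for NRF2 targets and 0.11 for epithelial-mesenchymal transition genes; those of the first 3 of these lists changed sign when 1 or more of the libraries were left out singly.

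Several large differences depend on which untreated SYK-WT library is kept. NPTX1, neuronal pentraxin 1, was at 4.77 and 0.900 FPKM in the untreated SYK-WT libraries, 15.5 and 16.0 FPKM with EGF, and 0.619 to 1.77 FPKM in SYK-KO libraries. Its difference was -1.63 ± 0.58 (adjusted p = 0.494), -2.43 without SYK-WT replicate 1 and -0.83 without replicate 2. STK32B, a kinase, stood at 17.9 and 3.38 FPKM in that pair, and its difference of -1.52 became -2.57 or -0.47. MPC1, a subunit of the mitochondrial pyruvate carrier, was at 117 and 42.8 FPKM there and gave -1.28, -2.00 and -0.57. FAM25A was at 75.6 and 34.2 FPKM and gave -1.67, -2.23 and -1.11, and belongs to a family of near-identical copies. AREG, amphiregulin, a ligand of EGFR, was at 228 and 116 FPKM and gave -0.59, -1.08 and -0.11.

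By the classes used here a response counts where it passed the test and reached 0.5 on the log2 scale. Of the 79 named genes, 17 responded in both genotypes with the smaller change in SYK-KO cells (2.79% of all loci) and 3 with the larger (1.02%). Another 14 responded in SYK-WT cells with under 0.25 of that size in SYK-KO cells (0.958% of all loci). Among them were PLAT, MBOAT1, KLK6, HIPK2, TOP2A and E2F1. A further 16 had at least 0.25 of it (5.05%), among them CXCL8 and TIMP3. In SYK-KO cells 4 responded with under 0.25 of that size in SYK-WT cells (0.0991%). These were ELOVL3, LAPTM5, CCNE1 and CXCL5, which was near 0 FPKM with SYK. Another 2 had at least 0.25 (1.08%) and 1 an opposite change (0.0165%), while 22 met the limit in neither genotype (89.0%). The 4 changes of the genotypes did not overlap for 34 genes with a lower (12.9% of all loci) and 38 with a higher change (10.9%) in SYK-KO cells. They overlapped for 7. Non-overlap, p and size of the difference were part of the naming rule, so these counts describe the genes picked. Only PLAT among the 79 passed the test of the difference itself.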

How the data were processed

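The values are FPKM per locus and library, made by the authors; the submitters' processing notes name TopHat, Cufflinks, Cuffdiff 2.2.1.3 and the build hg19. The sources used here do not give parameters, strand or library scaling. Columns were matched to libraries by title. The filter kept loci at 1 FPKM or more in 2 or more libraries. Values were fitted as log2(FPKM + 1), with a pseudocount of 1, in limma 3.58.1 (R 4.3.3) with a mean-variance trend and 1 mean per group over 8 libraries (4 residual degrees of freedom). The contrast was (SYK-KO EGF minus SYK-KO) minus (SYK-WT EGF minus SYK-WT). P-values are two-sided and adjusted by Benjamini-Hochberg over all 12112 loci at a threshold of 0.05. A fold change on this scale understates that of low genes. Intervals are at 95%.

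Symbols were found for 27541 loci, 27222 from RefSeq and 319 from GENCODE, and 216 had none. Coordinates of genes are the authors' in hg19; guides were placed on GRCh38 and promoters taken from RefSeq on GRCh38.p14. Depth was read from the step that 1 fragment makes at 645 loci of low level: 23000000 to 27200000 fragments per library, provided that the authors scaled FPKM by the fragments of that library alone.

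Genes named had 1 symbol, no small RNA and a mean of 5 FPKM or more in the highest group (8289 loci). They were those past the threshold, the 12 smallest p and 6 largest differences in each direction among loci with non-overlapping changes, the 2 smallest p of each of 29 lists (384 members tested), and PLAT, CXCL8, MMP1, CCNE1, SYK and EGFR. Of the 79, 19 share their span with another entry, and those with an expressed neighbour are uncertain for that reason. The highest level of the other entries was 5188 FPKM for KRT8 (with KRT18) and 24.8 FPKM for CD68. It was 0.534 FPKM for SNCG and 0.714 FPKM for PLK3, and 0 for SEMA7A, BCL3, TGFA and LAPTM5. The members, lists and rules were chosen with earlier results of these data known.

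The fit was tested on simulated data: for the difference of the responses over 12112 genes it found 30%, 76%, 96% and 100% of 50 genes each that were changed by 0.5, 1, 2 and 4 on the log2 scale, with 6 false calls. Each simulated gene had 1 spread in all 4 groups, whereas the untreated SYK-WT pair was the least alike in the data. The shares also rest on the number of genes changed, so they need not carry over to the data. Alternatives covered the pseudocount, the filter, scaling, trend, robust moderation, library weights, a replicate block and leaving out each library.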

Additional observations from a re-analysis of the deposited data

Results flagged for a closer look

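PLAT stands out because the test of the difference between the genotypes' responses itself passed: the EGF change was lower in SYK-KO cells by -2.15 on the log2(FPKM + 1) scale (limma adjusted p = 0.00259). Each of the 4 changes in SYK-WT cells (2.53 to 2.64) was above each of the 4 in SYK-KO cells (0.26 to 0.60). With each library left out in turn, the difference lay between -2.25 and -2.05.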

How the results depend on the processing

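PLAT passed with each pseudocount, filter, scaling, trend, moderation and weighting tried, at -2.54 to -1.42, and with 7 of the 8 libraries left out in turn (-2.25 to -2.05); without SYK-WT EGF replicate 1 it was -2.14 (adjusted p = 0.0525). The number of loci past the threshold, lower and higher in SYK-KO cells, was 9 and 7 with a pseudocount of 5, 2 and 0 with no filter, 1 and 2 with no trend, 3 and 4 with robust moderation, and 1 and 1 with quality weights. It was 3 and 4 when only loci with 1 symbol and no small RNA were tested, an alternative chosen after seeing the data. The 7 were PLAT, MMP1, MARCHF4, MBOAT1, SUGCT, SLC26A9 and ALPP, as under robust moderation. Of these, SLC26A9 and ALPP met the filter only through the group in which they are high. At an unadjusted p under 0.05, 791 were higher with no filter and 297 at 5 FPKM or more; 2087 and 834 did not overlap. With quality weights EGF passed at 1877 loci (SYK-WT) and 3024 (SYK-KO), the reverse of the order without weights (3238 and 1429). Leaving out each library in turn gave 0 to 396 lower and 0 to 471 higher loci past the threshold, 304 to 1635 and 263 to 1649 at unadjusted p under 0.05, and 2123 to 3698 and 1815 to 3444 without overlap; EGF passed at 1255 to 5108 loci with SYK and 319 to 2984 without it. The highest call counts came without SYK-WT replicate 1 (396 and 471) and replicate 2 (36 and 16), where the spread is estimated from the other 3 pairs and the lone library is assumed to vary like them. Of the other named genes' differences, 54 passed without the former and 18 without the latter; the cause was not tested. Signs turned for MSLN with a pseudocount of 0.1 (0.053) or 0.01 (0.24), for EGFR without SYK-WT replicate 1 (0.024; -0.44 without replicate 2) and for CD276 without SYK-KO EGF replicate 2 (-0.0047). Differences between replicates 1 and 2 correlated between groups at 0.0783 to 0.310 (Spearman), all above 0. Whether the replicate numbers pair the samples was not tested, and the main fit did not pair them. With the number as a replicate block, 1 and 0 loci passed. An unadjusted limma p under 0.05 then stood at 746 and 634 loci, against 592 and 478 without the block. In the simulated data, differences of 0.5 were found for a minority of genes. In the data, MARCHF4 (-1.21) and MMP1 (1.59) did not pass either (limma adjusted p = 0.0694 each). A difference that did not pass therefore does not show equal responses.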

Other observations

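SLC26A9 and ALPP, chosen after their values were seen, are below the level at which genes were named (limma adjusted p = 0.0694 each). Each reached 1 FPKM in a single group and met the filter only through it, so these p-values are no support for a difference. SLC26A9, an anion transporter of epithelia, was at 0.171 and 0.152 FPKM in untreated SYK-WT cells, 0.314 and 0.262 FPKM with EGF, 0.477 and 0.639 FPKM in untreated SYK-KO cells and 2.92 and 2.64 FPKM with EGF, so the treated SYK-KO libraries were the only ones above 1 FPKM. ALPP, placental alkaline phosphatase, was at 4.24 and 5.75 FPKM in untreated SYK-WT cells and 0.677 and 0.776 FPKM with EGF, and at 0.0288 to 0.137 FPKM in SYK-KO libraries. Its reads may be shared with near-identical copies, and a drop in SYK-KO cells could hardly be seen from that level.

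Interferon-stimulated genes had no shared direction: 12 of 20 differences were negative and 8 positive, with ISG15, a ubiquitin-like modifier, at -0.32 and IFIT2 at 0.36. Targets of p53 were split as well, with 8 negative and 9 positive differences among 17. EPHX1, microsomal epoxide hydrolase, was at 6.12 and 7.27 and then 5.12 and 5.74 FPKM with SYK (change -0.26, limma adjusted p = 0.0754). Without SYK it fell from 94.2 and 96.1 to 55.2 and 60.7 FPKM (difference -0.45, limma adjusted p = 0.426).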
